A study of Mus musculus with 2 samples.

Results

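The collagen genes are the protein-coding genes of the mm10 GENCODE annotation whose symbol is Col, a number, the letter a and a second number, with Col17a1 left out. The rule gave 43 of 21851 protein-coding genes. How open their chromatin was came from single-cell ATAC-seq, in which the transposase Tn5 cuts accessible DNA in single nuclei and the cut sites are counted. Back skin of E16.5 mouse embryos gave 1 library labelled Control and 1 labelled MOF cKO, with genotype MOFfl/fl/K14Cre. In the MOF cKO embryos a Cre under the Krt14 promoter removes floxed Mof, the gene of an acetyltransferase for histone H4 lysine 16, in the epithelium, while fibroblasts do not use that promoter, and controls in the study were wild-type or heterozygous littermates on a mixed C57Bl/6J and CD-1 background. Both libraries carry K14-H2BGFP, a reporter that marks epithelial nuclei. GFP-positive and GFP-negative cells were sorted from each skin and mixed again, in a ratio for which the labels and the study's text and methods give different values, so the numbers of epithelial and dermal cells were set by the sort. The assay was run on 1 pair of samples, and the study used animals of both sexes. With 1 library per genotype there is no replicate check, so no test was made and each interval given here covers counting error only.

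Collagens are triple-helical proteins of the extracellular matrix. In skin, dermal fibroblasts make the fibrillar collagens I, III and V, which give the dermis its strength, and collagen VI, which forms beaded microfibrils around cells. Collagen IV forms the network of basement membranes, with the alpha1 and alpha2 chains in nearly all of them and the alpha3 to alpha6 chains in epithelial and a few other tissues, and collagen VII forms the fibrils that anchor the epidermal basement membrane to the dermis. An open promoter is a condition for transcription and not a measure of it, and no RNA or protein was measured in these libraries.

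The Control library held 2541 cell barcodes and 249679 peaks, and the MOF cKO library 4348 barcodes and 340134 peaks. After barcodes with fewer than 1000 cut sites were left out, 2481 and 4348 cells remained, with a median of 64436 sites in Control and 66239.5 in MOF cKO, and 21 barcodes occurred in both libraries. Cells were clustered without the regions at collagen genes and named from markers that include no collagen. Epithelial-like cells numbered 1389 in Control and 2640 in MOF cKO, fibroblast-like cells 661 and 1252, immune-like cells 46 and 281, mural-like cells 19 and 69 and endothelial-like cells 9 and 26. The other 357 and 80 cells stayed unnamed. Most of them were a shallow cluster of 304 Control cells, in which 9 of 10 epithelial markers were at 2-fold. The 10 epithelial markers, among them Krt5 and Krt14, summed to 313 CPM (cut sites per 1000000 sites in regions shared by both libraries) in epithelial-like Control cells and to 37.1 in fibroblast-like ones. The 10 fibroblast markers, among them Pdgfra and Twist2, summed to 286 CPM in fibroblast-like Control cells and to 82.5 in epithelial-like ones. No epithelial marker was at 0 in epithelial-like cells and no fibroblast marker in fibroblast-like cells, in either library. The promoter of Kat8, the symbol of Mof in the annotation, stood at 48.8 CPM in epithelial-like Control and 36.7 in MOF cKO, a log2 ratio of -0.41, which is that of the median promoter given below and does not check the deletion.

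A pair of facts about the clusters touches most values below. Epithelial-like cells of the 2 libraries fell into different clusters, with clusters 2, 5 and 11 nearly all Control and clusters 0, 1, 3, 13 and 15 nearly all MOF cKO, and of the fibroblast-like clusters 6, 7 and 8 were also mostly of 1 library. Cluster 11, with 104 Control cells, and cluster 13, with 86 MOF cKO cells, had the highest median doublet scores (0.86 and 0.91) and a median of 158540.5 and 157137 sites. Collagen values that moved by over 1.5 times when the 10% of barcodes with the highest doublet scores were left out are given both ways. At the genes that process or bind collagen, fibroblast over epithelial ratios are given with all cells only.

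Regions at the collagen genes numbered 1105, of which 691 had a peak in both libraries and were used for every comparison. A further 111 had a peak in Control only and 303 in MOF cKO only, beside 32976 and 122539 over the whole genome. A shared region within 500 bp of a start site, called the promoter here, was found for 38 of the 43 genes, and at least 1 other shared region inside the gene, called the gene body, for 41. Where a gene had more than 1 promoter region, as Col1a1, Col15a1 and Col18a1 did, their sites were summed. Col10a1, the network collagen of hypertrophic cartilage, had no peak in either library. Col6a5, Col14a1, Col20a1 and Col28a1 had gene-body regions and no shared promoter region, and Col11a2 had a promoter and no gene-body region. Col4a1 and Col4a2, whose RefSeq starts lie 21 bases apart, share 1 promoter region, as do Col4a3 and Col4a4, so each pair is 1 measurement.

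Collagen genes took a larger share of the accessible sites in fibroblast-like and mural-like than in epithelial-like cells. In fibroblast-like cells 0.333% of Control sites (exact binomial interval 0.33 to 0.335) and 0.325% of MOF cKO sites lay in the 691 collagen regions. Epithelial-like cells had 0.191% and 0.217%, and immune-like cells the least, 0.0925% and 0.0915%. Mural-like cells, the pericytes and smooth muscle of vessels, were close to the fibroblasts at 0.301% and 0.309%, and endothelial-like cells stood at 0.178% and 0.21%. The 5 classes had the same order in both libraries, and of neighbours in that order only epithelial-like and endothelial-like cells had overlapping intervals.

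**Figure D1:**
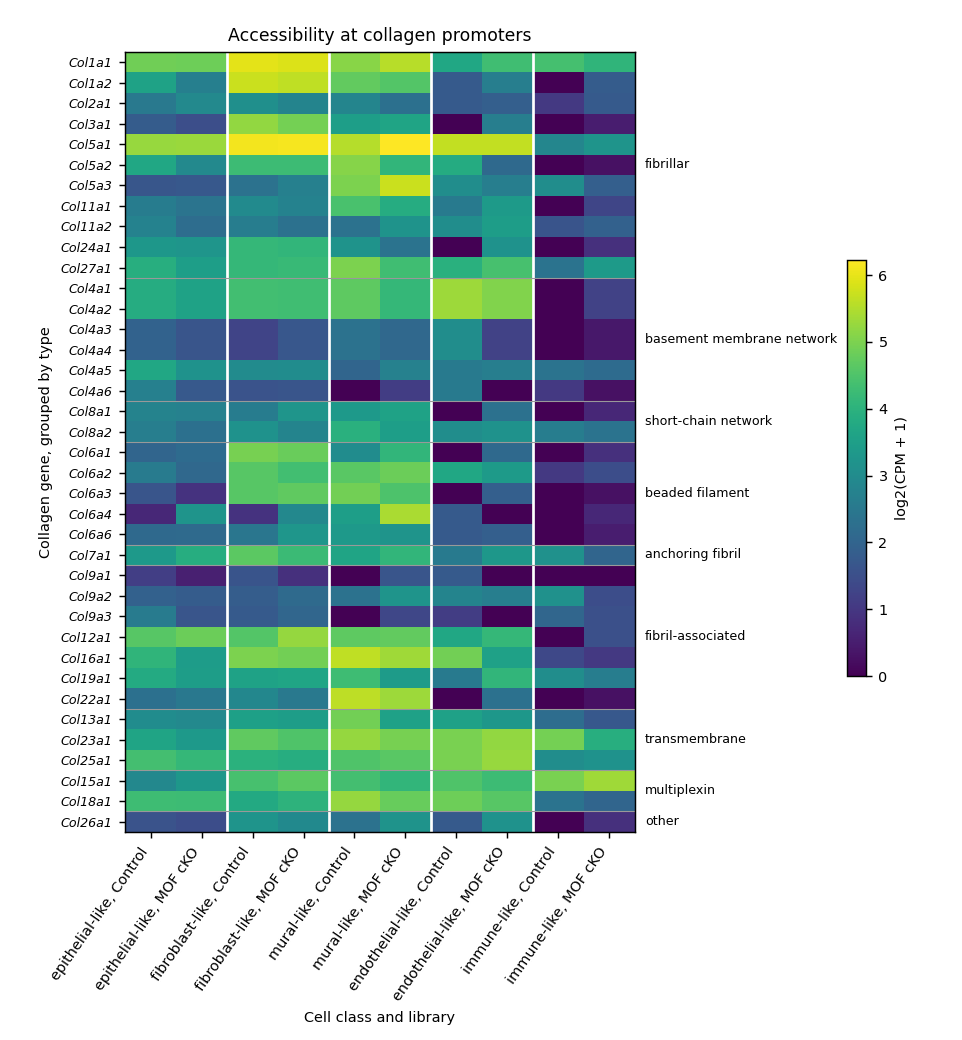
Accessibility of the 38 collagen promoters, as log2(CPM + 1), with genes in rows grouped by collagen type and the 5 cell classes of each library in columns. Col1a1, Col1a2 and Col3a1 were brightest in fibroblast-like cells, Col22a1 and Col5a3 in mural-like cells and Col15a1 in immune-like cells, and the darkest fields of the mural-like, endothelial-like and immune-like columns are promoters with 0 sites in few cells.

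The first comparison asks which collagen genes were more open in fibroblast-like than in epithelial-like cells of the same library. Of 38 promoters, 10 were at least 2-fold higher in fibroblast-like cells of Control and 4, from 3 regions, at least 2-fold lower, where 7.8% and 9.76% of all 15735 promoters passed the same limits. The counts without the highest doublet scores were 12 higher and 2 lower, beside 9.02% and 10.1%. In MOF cKO 13 were higher and none lower, where 15% and 8.56% of all promoters did. The median collagen promoter was higher in fibroblast-like cells by a log2 of 0.59 in Control and 0.69 in MOF cKO, against 0.17 and 0.57 for all promoters, so the shift of all promoters between the classes itself differed between the libraries.

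Fibrillar collagens leaned to the fibroblasts. Of their 11 promoters, 10 had a log2 ratio above 0 in each library, where 68.05% of all promoters in Control and 80.62% in MOF cKO did, with a median of 0.88 in Control and 0.91 in MOF cKO. Col3a1, the alpha1 chain of collagen III, stood at 2.52 CPM (exact Poisson interval 2.13 to 2.96) in epithelial-like and 36.4 (33.8 to 39.1) in fibroblast-like Control cells, and at 1.83 and 29.2 in MOF cKO. Its log2 ratio was 3.85 (3.59 to 4.12) in Control and 4.0 (3.77 to 4.23) in MOF cKO. The promoter was thus far more open in fibroblast-like than in epithelial-like cells of both libraries, and it was at 0 CPM in immune-like Control cells and 0.414 in immune-like MOF cKO cells. In Control most of the epithelial signal lay in the high-doublet cluster 11, which held 246 Col3a1 sites at 13.0 CPM, beside 11 and 35 sites at 0.25 and 0.663 CPM in clusters 5 and 2. In MOF cKO the high-doublet cluster 13 held 121 of 379 sites at 9.70 CPM, and clusters 0, 1, 3 and 15 ranged from 0 to 1.55 CPM. Without the highest doublet scores the log2 ratio was 6.56 in Control and 4.75 in MOF cKO.

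Col1a2, the alpha2 chain of collagen I, had 11.1 CPM (10.3 to 12.0) in epithelial-like and 51.6 (48.5 to 54.9) in fibroblast-like Control cells, and 5.42 and 48.5 in MOF cKO. The log2 ratios were 2.22 (2.07 to 2.36) and 3.16 (3.02 to 3.31). Per kilobase of region, the Col1a2 promoter was the most accessible of all 38 in fibroblast-like cells of both libraries, at 45.4 and 42.65 CPM per kb. Col1a1, the alpha1 chain of collagen I, had 28.5 and 61.3 CPM in epithelial-like and fibroblast-like Control cells and 27.9 and 59.1 in MOF cKO, log2 ratios of 1.10 and 1.08. Its value sums a pair of regions, and with the narrower window of 100 bp around the start, which kept fewer regions, the ratios were 3.62 and 4.25. Col5a1, Col5a2 and Col5a3, the chains of collagen V, had log2 ratios of 0.88, 0.61 and 0.90 in Control. Col2a1 and Col11a2, best known from cartilage, had the lowest fibrillar ratios in MOF cKO, at -0.12 and 0.13. In Control Col11a2 was the lowest at -0.14. Col2a1 stood there at 0.69, above Col27a1 at 0.26, Col11a1 at 0.42 and Col5a2. Relative to all promoters Col2a1 and Col11a2 were at 0.51 and -0.31 in Control and at -0.69 and -0.44 in MOF cKO.

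The beaded filament collagen VI had the highest median of any type with more than 2 genes, 2.23 in Control and 2.55 in MOF cKO over 5 promoters. Its classical chains were all over 2-fold higher in fibroblast-like cells. Col6a3, the chain with the longest globular part, had 2.14 CPM (1.78 to 2.55) in epithelial-like and 23.5 (21.4 to 25.7) in fibroblast-like Control cells, and 0.889 and 25.1 in MOF cKO. The log2 ratios were 3.46 (3.17 to 3.75) and 4.82 (4.51 to 5.15), or 5.89 and 6.14 without the highest doublet scores. Col6a1 stood at 3.06 and 29.9 CPM in Control and at 3.52 and 26.7 in MOF cKO, log2 ratios of 3.29 and 2.92. Without the highest doublet scores its Control ratio was 4.57. Col6a2 had 4.97 and 23.3 CPM in Control and 3.30 and 19.4 in MOF cKO, log2 ratios of 2.23 and 2.55. Col6a6 had ratios of 0.39 and 1.33, the latter 0.72 with the 100 bp window.

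**Figure D2:**
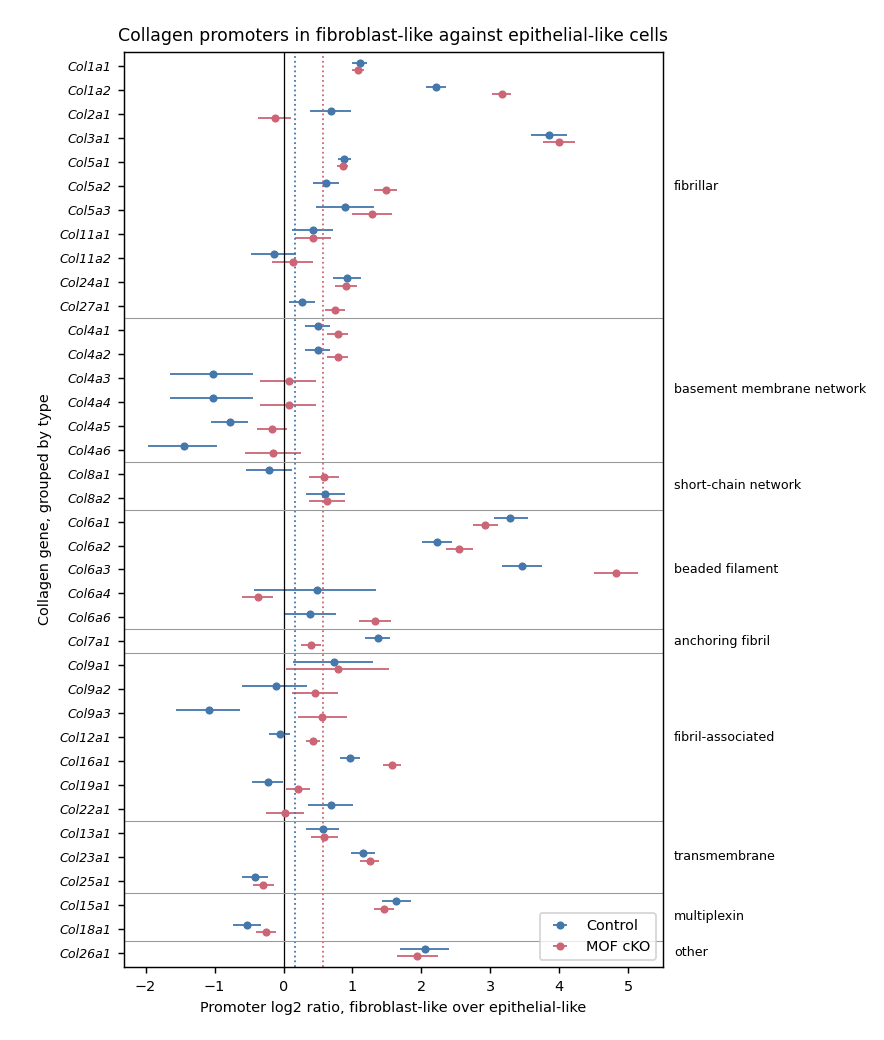
Log2 ratio of promoter accessibility, fibroblast-like over epithelial-like, for 38 collagen promoters in rows grouped by type, with 95% counting intervals as bars, in Control (blue) and MOF cKO (red). Dotted lines mark the medians of all promoters, 0.17 in Control and 0.57 in MOF cKO. The Control points of Col3a1, Col6a3 and Col6a1 lie farthest to the right, and those of Col4a6, Col9a3, Col4a3 and Col4a4 farthest to the left, where the MOF cKO points lie between -0.15 and 0.56, all left of the MOF cKO line.

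The basement membrane network lay below all promoters in both libraries, with a median over the 4 distinct promoter regions of its 6 genes of -0.90 in Control and -0.03 in MOF cKO, beside 0.17 and 0.57 for all promoters. Col4a6, the alpha6 chain of collagen IV, had 5.51 CPM (4.92 to 6.15) in epithelial-like and 2.02 (1.44 to 2.75) in fibroblast-like Control cells, a log2 ratio of -1.45 (-1.96 to -0.97). In MOF cKO it had 2.32 and 2.09 CPM, a ratio of -0.15 (-0.57 to 0.25). Relative to the median of all promoters it was at -1.62 in Control and -0.71 in MOF cKO, so it lay below the median promoter in both. Col4a5, its neighbour on the X chromosome, had 12.0 and 7.04 CPM in Control and 8.0 and 7.14 in MOF cKO, log2 ratios of -0.78 and -0.16, or -0.95 and -0.73 relative to all promoters. The region shared by Col4a3 and Col4a4 had 2.91 and 1.44 CPM in Control and 2.11 and 2.22 in MOF cKO, ratios of -1.02 and 0.08, or -1.19 and -0.49 relative to all promoters. In contrast, the region shared by Col4a1 and Col4a2 leaned to the fibroblasts, with 13.6 (12.6 to 14.6) and 19.2 (17.3 to 21.2) CPM in Control and 10.9 and 18.8 in MOF cKO, log2 ratios of 0.50 and 0.78, or 0.32 and 0.22 relative to all promoters. Endothelial-like cells held the most of it, 38.7 CPM in Control (22.1 to 62.8) and 32.3 in MOF cKO (20.7 to 48), from only 9 and 26 cells.

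Col7a1, the gene of the anchoring fibril, which both keratinocytes and fibroblasts make, had 9.35 CPM (8.58 to 10.2) in epithelial-like and 24.1 (22.0 to 26.4) in fibroblast-like Control cells. In MOF cKO the 2 classes stood closer, at 13.7 (13.0 to 14.4) and 18.0 (16.6 to 19.6). The log2 ratio was 1.37 (1.19 to 1.55) in Control and 0.40 (0.25 to 0.54) in MOF cKO, or 1.2 and -0.17 relative to the median of all promoters. Among the remaining types, Col26a1 was 2.04 and 1.94 higher on the log2 scale in fibroblast-like cells and Col15a1, a collagen of vessel and muscle basement membranes, 1.64 and 1.46. The transmembrane collagen gene Col23a1 was at 1.15 and 1.25. Col9a3, a chain of the fibril-associated collagen IX of cartilage, was lower in fibroblast-like cells of Control at -1.09 and stood at 0.56 in MOF cKO, which is the median of all promoters there (0.57). Col18a1, the source of endostatin, and Col25a1, a transmembrane collagen, had ratios below 0 in both libraries, -0.53 and -0.41 in Control and -0.25 and -0.29 in MOF cKO. Col6a4 had the lowest ratio in MOF cKO, -0.37, beside 0.49 (-0.43 to 1.35) in Control, or -0.94 and 0.31 relative to all promoters.

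Across the 5 classes, 23 of 38 collagen promoters (60.5%) were highest in the same class in both libraries, beside 50.9% of all promoters. These were 10 in mural-like (26.3%), 6 in fibroblast-like (15.8%), 4 in endothelial-like (10.5%), 2 in epithelial-like (5.26%) and 1 in immune-like cells (2.63%), beside 10.2%, 3.44%, 10.2%, 6.74% and 20.4% of all promoters. Most of these orders lay within counting error of the small classes, and the interval of the highest class was clear of every other class in both libraries for 4 promoters, Col3a1, Col1a2 and Col6a1 in fibroblast-like and Col22a1 in mural-like cells. Col22a1, a collagen of tissue junctions, had 47.4 CPM (30 to 71.1) in mural-like Control cells and 39.0 (30.1 to 49.7) in MOF cKO, where fibroblast-like cells had 6.35 and 4.70. Col5a3 had 30.9 and 51.6 CPM in mural-like and 4.08 and 5.49 in fibroblast-like cells. Col15a1 was highest in immune-like cells, at 30.3 (20.3 to 43.5) and 39.3 (33.9 to 45.3) CPM, beside 20.3 and 24.2 in fibroblast-like cells. Its value sums 2 regions that lie far apart, between chr4:47207804 and chr4:47304143. Which of them holds the immune-like sites was not examined. The mural-like class held only 19 Control cells, so its Control intervals are wide.

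Promoter sequences of 6 collagens that the comparisons turn on are shown from RefSeq (GRCm38.p6), 250 bases upstream of the start, 5′ to 3′ on the gene's strand. Capitals mark matches on either strand to TATAAA (the TATA box), CCAAT (the box bound by NF-Y) and GGGCGG (the GC box of SP factors). They also mark TGANTCA (a pattern of the AP-1 site with any base at N), and no match overlaps another in these stretches. Col3a1 lies at chr1:45311288-45311537 (plus), Col6a3 at chr1:90843972-90844221 (minus), Col1a2 at chr6:4505368-4505617 (plus), Col7a1 at chr9:108953336-108953585 (plus), Col4a6 at chrX:141474077-141474326 (minus) and Col6a4 at chr9:106096692-106096941 (minus). The first 3 had the highest fibroblast over epithelial ratios in MOF cKO, Col7a1 had genotype ratios of opposite sign in the 2 classes, Col4a6 leaned to the epithelium in Control, and Col6a4 had the largest genotype ratio, as given further on. These stretches show which letters are there and nothing about what binds them.
Col3a1 promoter: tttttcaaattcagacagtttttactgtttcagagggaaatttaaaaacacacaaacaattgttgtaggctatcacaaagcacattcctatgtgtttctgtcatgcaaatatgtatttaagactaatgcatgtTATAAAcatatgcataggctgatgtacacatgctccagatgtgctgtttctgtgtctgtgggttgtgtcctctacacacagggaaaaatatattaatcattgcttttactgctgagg
Col6a3 promoter: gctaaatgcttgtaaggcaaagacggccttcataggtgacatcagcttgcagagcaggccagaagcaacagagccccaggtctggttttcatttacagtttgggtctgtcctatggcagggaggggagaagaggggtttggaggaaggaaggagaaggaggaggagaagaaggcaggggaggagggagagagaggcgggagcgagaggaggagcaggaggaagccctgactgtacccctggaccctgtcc
Col1a2 promoter: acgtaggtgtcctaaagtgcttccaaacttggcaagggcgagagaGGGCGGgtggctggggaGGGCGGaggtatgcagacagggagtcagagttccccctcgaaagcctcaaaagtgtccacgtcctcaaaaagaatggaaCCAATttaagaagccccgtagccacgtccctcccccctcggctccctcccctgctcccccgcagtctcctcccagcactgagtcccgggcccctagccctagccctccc
Col7a1 promoter: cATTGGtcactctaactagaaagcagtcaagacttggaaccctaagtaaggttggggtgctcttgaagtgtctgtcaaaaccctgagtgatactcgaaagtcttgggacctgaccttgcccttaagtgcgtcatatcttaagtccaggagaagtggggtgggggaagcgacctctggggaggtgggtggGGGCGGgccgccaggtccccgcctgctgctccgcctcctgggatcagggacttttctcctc
Col4a6 promoter: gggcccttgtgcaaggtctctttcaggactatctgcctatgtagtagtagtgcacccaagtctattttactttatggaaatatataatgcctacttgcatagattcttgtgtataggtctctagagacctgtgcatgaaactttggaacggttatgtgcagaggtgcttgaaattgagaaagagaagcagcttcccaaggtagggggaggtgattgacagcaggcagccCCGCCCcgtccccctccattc
Col6a4 promoter: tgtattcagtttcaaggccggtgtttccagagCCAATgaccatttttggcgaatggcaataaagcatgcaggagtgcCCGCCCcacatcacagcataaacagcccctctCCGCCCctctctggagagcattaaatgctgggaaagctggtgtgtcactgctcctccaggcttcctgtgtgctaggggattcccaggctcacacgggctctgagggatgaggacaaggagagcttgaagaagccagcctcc

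The Col3a1 stretch holds 1 TATAAA, and its promoter had a CpG observed to expected ratio of 0. The Col6a3 stretch holds none of the 4 motifs, Col1a2 holds 1 CCAAT and 2 GGGCGG, and Col6a4 the same. Col7a1 holds 1 CCAAT and 1 GGGCGG, and Col4a6 1 GGGCGG. RefSeq promoter entries, from 250 bases before to 50 after the start, matched 34 of the 43 symbols, and 30 of these started near a shared region. Of the 30, 21 (70%) held a GGGCGG, 12 (40%) a CCAAT, 3 (10%) a TATAAA and 1, Col6a1, a TGANTCA (3.33%). Over all 20143 promoters of that length the shares were 47.7%, 37.8%, 12.1% and 7%. These were every RefSeq start, open or not, while the 30 were 1 start per gene near a shared region. The shares and CpG ratios of these sets are thus not like for like. The median CpG ratio was 0.54 for the collagens and 0.588 for all promoters.

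Gene bodies of collagens also leaned to the fibroblasts, against the direction of most genes. Of 41 collagen genes, 18 had gene-body sums at least 2-fold higher in fibroblast-like than in epithelial-like Control cells and 4 lower, where 12.6% and 31.3% of all 13899 genes passed those limits. In MOF cKO 16 were higher and 6 lower, beside 11% and 35.4% of all genes. The median collagen was at 0.77 in Control and 0.67 in MOF cKO on the log2 scale, and the median of all genes was at -0.37 and -0.47. Of 649 single gene-body regions of collagens, 45% were at least 2-fold higher in fibroblast-like Control cells, beside 24.2% of all 97351 such regions.

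All 10 fibrillar collagens with gene-body regions were above 0 in both libraries, where 36.75% of all genes in Control and 34.72% in MOF cKO were. Col1a2 led with 2.82 CPM in epithelial-like and 27.9 in fibroblast-like Control cells and 2.57 and 22.5 in MOF cKO, log2 ratios of 3.30 and 3.13. Without the highest doublet scores its Control ratio was 4.98. Col6a1 followed at 2.85 and 2.38, Col3a1 at 2.55 and 2.01, and Col6a6, a collagen VI chain with a broad body of 25 regions, at 2.39 and 2.35. Without the highest doublet scores the Control values were 3.65 for Col6a1 and 3.06 for Col6a6. Col6a3 stood at 2.20 and 1.28, Col6a2 at 2.07 and 1.34, Col9a1 at 2.03 and 1.95, Col7a1 at 1.71 and 0.85 and Col1a1 at 1.61 and 1.56. Collagen IV genes went both ways. Col4a1 was higher in fibroblast-like cells, 77.9 and 214 CPM in Control and 110 and 222 in MOF cKO, log2 ratios of 1.46 and 1.01. Col4a3 was lower, 19.6 and 6.0 CPM in Control and 24.3 and 5.85 in MOF cKO, ratios of -1.71 and -2.06, and Col4a6 likewise at -1.66 and -1.62. Col4a5 was at -0.49 and -1.28 and Col4a2 at 0.52 and -0.12. Col4a4, which shares the Col4a3 promoter, was at 0.76 and 0.67, so of the 3 collagen IV pairs only Col4a3 and Col4a4 had gene bodies on opposite sides of 0 in both libraries. Col18a1 at -1.64 and -1.38 and Col19a1 at -1.54 and -1.60 were the other collagens with a gene body at least 2-fold lower in fibroblast-like cells of both libraries, and in MOF cKO Col22a1 was too, at -1.89. The next lowest in Control was Col16a1, a fibril-associated collagen, at -0.58.

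The second comparison sets MOF cKO beside Control in epithelial-like cells, the cells in which Mof was deleted. Accessibility at all promoters was lower in MOF cKO there, with a median log2 ratio of -0.42 and 86.2% of 15735 promoters below 0, so values in this comparison are also given relative to that median. Collagen promoters had a median of -0.29, and 28 of 38 were below 0. One was at least 2-fold higher and 5 at least 2-fold lower, beside 2.19% and 2.6% of all promoters. Leaving out the highest doublet scores, 3 were higher (Col6a4, Col3a1 and Col6a1) and 4 lower, beside 2.43% and 2.81%. When libraries were scaled to the median ratio of all promoters the count of lower ones was 0.

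Col6a4, a collagen VI chain next to Col6a5 and Col6a6 on chromosome 9, was the one higher promoter with all cells and stayed so without the highest doublet scores, at 4.10. It held 73 sites in epithelial-like Control cells and 1738 in MOF cKO, 0.63 CPM (0.442 to 0.87) and 8.40 (7.85 to 8.97). The log2 ratio was 3.74 (3.26 to 4.26), or 4.16 above the median of all promoters. The Control clusters ranged from 0.318 to 1.42 CPM and the MOF cKO clusters from 0.985 to 13.4, so the ranges overlapped through cluster 15, which had 2 sites in 82 cells. Fibroblast-like cells showed it too, with 35 and 403 sites, 0.883 (0.519 to 1.4) and 6.49 (5.63 to 7.45) CPM, a log2 ratio of 2.88 (2.17 to 3.67). Mural-like cells had 10 and 140 sites, 10.3 (3.34 to 24) and 42.0 (32.7 to 53.1) CPM. In immune-like cells the counts were 0 and 6 sites and in endothelial-like cells 2 and 0. The level was thus higher in MOF cKO in epithelial-like, fibroblast-like and mural-like cells.

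The 5 lower promoters were Col9a1 at -1.41 (-1.97 to -0.86), Col6a3 at -1.27 (-1.67 to -0.87), Col4a6 at -1.25 (-1.50 to -1.0), Col9a3 at -1.24 (-1.50 to -0.99) and Col1a2 at -1.04 (-1.20 to -0.87). Relative to all promoters they were at -0.99, -0.85, -0.83, -0.82 and -0.62. Col4a6 was separate between the libraries, since its 3 Control clusters ranged from 5.22 to 5.85 CPM and its 5 MOF cKO clusters from 2.04 to 2.96. Col6a3 rested on the high-doublet clusters, with 0.379 and 0.681 CPM in Control clusters 2 and 5 but 10.4 in cluster 11, and its ratio without the highest doublet scores was -0.15. Col1a2 at -0.93, Col9a3 at -1.05, Col4a6 at -1.13 and Col9a1 at -1.28 moved less. The 10 fibroblast markers summed to 82.5 CPM in Control and 63.0 in MOF cKO within epithelial-like cells, with single markers from 1.21 to 24.9 and from 0.71 to 19.97 and none at 0, and their part in these values was not tested. Col9a3 varied within Control from 1.61 CPM in cluster 2 to 9.06 in cluster 5, the Control cluster with the highest sum of hair follicle markers (177 CPM, against 113 in cluster 2).

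In all, 7 of 38 collagen promoters had every MOF cKO epithelial-like cluster below every Control one, beside 21.1% of all promoters, and these were Col4a3 and Col4a4 with 1 region, Col4a6, Col5a2, Col11a2, Col19a1 and Col27a1. None had every MOF cKO cluster above, beside 2.03% of all promoters. All 6 collagen IV promoters were below 0, with Col4a5 at -0.59, the Col4a3 and Col4a4 region at -0.47 and the Col4a1 and Col4a2 region at -0.31, and the median of their 4 regions was -0.53, beside -0.42 for all promoters. Relative to all promoters those 3 were at -0.17, -0.05 and 0.11, so the Col4a1 and Col4a2 region turned to above 0. Col7a1 was the second highest, 9.35 CPM in Control and 13.7 in MOF cKO, a log2 ratio of 0.55 (0.41 to 0.69) and 0.97 above the median of all promoters. Its clusters overlapped, from 7.03 to 14.2 CPM in Control and from 10.9 to 25.1 in MOF cKO, through the high-doublet Control cluster 11 at 14.2. The other Control clusters, 2 and 5, stood at 7.03 and 10.04 CPM. Col2a1 at 0.47, Col15a1 at 0.43 and Col22a1 at 0.23 followed, or 0.89, 0.85 and 0.65 above all promoters. The other chains of collagens I, III and VI stood at -0.03 (Col1a1), -0.46 (Col3a1), 0.21 (Col6a1) and -0.59 (Col6a2). Relative to all promoters they were at 0.39, -0.04, 0.62 and -0.17, so Col1a1 turned to above 0. Col3a1 turned to 1.49 and Col6a1 stood at 1.19 without the highest doublet scores. With the 100 bp window Col1a1 was at -0.75. Within this class the 5 basal markers of the epidermis summed to 144.7 CPM in Control and 148.5 in MOF cKO, where single markers ranged from 25.2 to 37.69 and from 14.82 to 73.19, so near-equal sums held unequal markers. The 5 measured suprabasal ones summed to 73.06 and 65.55 and the 7 hair follicle ones to 142.9 and 112.6, none at 0 in any of the 3 lists, and the part of cell composition in these values was not tested.

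In fibroblast-like cells, where Krt14-Cre is not expected to act, collagen promoters stood near all others. The median log2 ratio was -0.02 for 38 collagens and -0.03 for all promoters, and 1 was at least 2-fold higher and 1 lower, beside 1.9% and 0.871% of all 15612 promoters. The higher one was Col6a4 and the lower one Col9a1, which had 81 and 50 sites, 2.04 (1.46 to 2.78) and 0.806 (0.521 to 1.19) CPM, a ratio of -1.34 (-2.12 to -0.59). Col6a6 at 0.97 (0.62 to 1.34), Col8a1, a network collagen of vessels, at 0.72 (0.39 to 1.07) and Col12a1, a fibril-associated collagen of the dermis, at 0.69 (0.53 to 0.85) were the next highest. Both dominant fibrillar genes were close to 0, Col1a1 at -0.05 (-0.16 to 0.05) and Col1a2 at -0.09 (-0.20 to 0.03), and Col3a1 was at -0.32 (-0.46 to -0.17). After Col9a1 the lowest were Col22a1 at -0.43, Col7a1 and Col8a2 at -0.42 and Col11a2 at -0.38. Collagen VI chains had -0.16 (Col6a1), -0.27 (Col6a2) and 0.10 (Col6a3). The collagen IV regions had 0.63 (-0.02 to 1.31) for Col4a3 and Col4a4, -0.02 for Col4a1 and Col4a2, 0.02 for Col4a5 and 0.05 for Col4a6. Of the 38 promoters, 3 (Col6a4, Col6a6 and Col8a1) had each of 4 MOF cKO clusters above both Control clusters and 2 (Col3a1 and Col22a1) below them, beside 4.14% and 5.8% of all promoters.

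Cluster 4 held similar numbers of fibroblast-like cells of both libraries, 316 and 303, and was looked at alone after the data had been seen. There 2 of 38 promoters were at least 2-fold higher and 1 lower, beside 1.43% and 0.968% of all promoters in that cluster, with a median of 0.08 for the collagens and 0.09 for all promoters. Col6a4 had 4 and 73 sites in it, 0.251 (0.0304 to 0.906) and 5.38 (3.78 to 7.43) CPM, a log2 ratio of 4.42, and Col8a1 3.38 (2.23 to 4.92) and 8.76 (6.68 to 11.3). Col9a1 had 2.76 and 0.957 CPM. Col6a4 and Col9a1, the extremes of the whole class, were past 2-fold in this cluster, whose cells are part of the class sums. Other promoter ratios had another sign here than in the whole class. Col8a2 stood at 0.03, Col6a2 at 0.17, Col1a1 at 0.20 and Col4a5 at -0.53. Cluster 8 held 315 Control and 57 MOF cKO cells. Col6a4 stood there at 1.24 and 7.27 CPM and Col9a1 at 1.56 and 2.31. The Col9a1 levels are low and the MOF cKO one rests on 57 cells, so their order is not read as a direction.

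**Figure D3:**
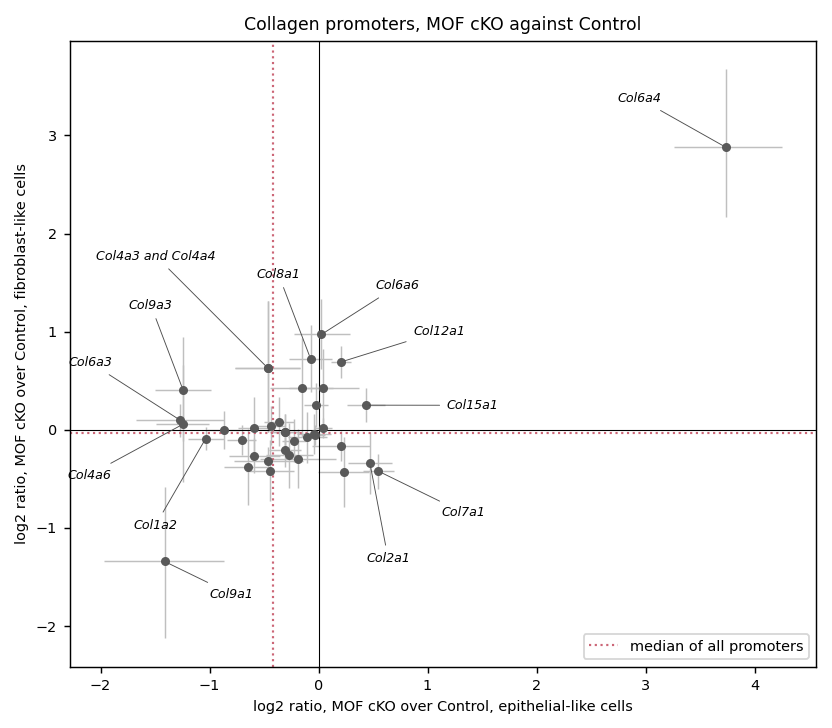
Log2 ratio of MOF cKO over Control at 38 collagen promoters in epithelial-like cells (x axis) and fibroblast-like cells (y axis), with 95% counting intervals as bars. Dotted lines mark the medians of all promoters, -0.42 and -0.03. Col6a4 lies alone at the top right and Col9a1 at the bottom left, and Col7a1 and Col2a1 lie right of 0 on the x axis and below 0 on the y axis.

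Gene bodies showed no common shift between the genotypes. In epithelial-like cells the median collagen was at 0.04, as were all genes, and 3 of 41 were at least 2-fold higher and none lower, beside 10.4% and 3.04% of all 13899 genes. The 3 were Col22a1, with 11.3 CPM (10.5 to 12.2) in Control and 32.1 (31.0 to 33.2) in MOF cKO, Col6a5 with 10.8 and 26.0 and Col4a5 with 9.12 and 18.3. Their log2 ratios were 1.5 (1.38 to 1.63), 1.27 (1.14 to 1.40) and 1.01 (0.87 to 1.15). Col28a1 at 0.78, Col24a1 at 0.77, Col4a2 at 0.68, Col6a3 at 0.51, Col4a1 at 0.50, Col7a1 at 0.45, Col3a1 at 0.37, Col4a3 at 0.31 and Col4a6 at 0.19 were also above 0. The lowest were Col9a2 at -0.71, Col2a1 at -0.51, Col6a2 at -0.49, Col8a2 at -0.38 and Col1a1 at -0.31, with Col6a1 at -0.20, Col4a4 at -0.18 and Col1a2 at -0.14. When the highest doublet scores were left out 5 were higher, with Col24a1 at 1.01 and Col1a2 at 1.2 added, and Col6a1 turned to 0.31. In fibroblast-like cells no gene body was 2-fold higher and Col6a2 was lower, 6.10 and 2.61 CPM, a ratio of -1.23 (-1.65 to -0.81), where 3.18% and 2.37% of all 13690 genes passed. Col6a1 at -0.67 and Col6a3 at -0.41 were next, so the gene bodies of the 3 classical collagen VI chains were the lowest, before Col7a1 at -0.40, Col1a1 at -0.36 and Col1a2 at -0.31. The highest were Col6a4 at 0.59, Col6a5 at 0.43, Col8a1 at 0.40, Col15a1 at 0.35 and Col28a1 at 0.27. Collagen IV bodies ranged from -0.28 (Col4a4) to 0.22 (Col4a5 and Col4a6), and Col3a1 was at -0.17. In epithelial-like cells, of 37 collagens with both, 16 (43.2%) had a promoter below 0 and a body above 0 and 5 (13.5%) the reverse, beside 44.2% and 5.13% of all 12116 genes with both. For most gene bodies the values of single clusters of the 2 libraries overlapped. In epithelial-like cells Col6a5, Col8a1, Col15a1 and Col22a1 (4 of 41) were higher in every MOF cKO cluster and Col2a1 and Col8a2 (2) lower, beside 9.82% and 9.81% of all genes. In fibroblast-like cells Col6a4, Col8a1 and Col15a1 (3) were higher and Col3a1, Col4a4, Col5a1, Col6a2 and Col9a1 (5) lower, beside 4.86% and 6.22%.

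Single regions inside a gene moved further than its sum. Of 649 gene-body regions of collagens, 101 were at least 2-fold higher and 102 lower in MOF cKO epithelial-like cells (15.6% and 15.7%), beside 16.6% and 13.6% of all 97355. The counts without the highest doublet scores were 117 and 71 of 646 (18.1% and 11%), beside 18.1% and 12.2% of all regions. In fibroblast-like cells 52 and 48 of 620 passed, 8.39% and 7.74%, beside 10.5% and 7.91% of all regions with enough sites. Of the 620 regions measured in both classes, 26 (4.19%) were higher in both and 17 (2.74%) lower in both, and 6 (0.968%) went in opposite directions, close to the 4.47%, 2.16% and 1.22% of all 91879 such regions.

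Among regions with at least 200 sites over both libraries, those with the largest ratios were mostly introns. In epithelial-like cells an intron region of Col4a1 (chr8:11263529-11264452) held 180 and 4133 sites, 1.55 and 20 CPM, a log2 ratio of 3.68 (3.38 to 4.0). In fibroblast-like cells it held 57 and 198 sites, a ratio of 1.15 (0.54 to 1.81). An intron region of Col4a2 (chr8:11322617-11323768) held 53 and 1315 sites, a ratio of 3.80 (3.24 to 4.41), and one of Col28a1 (chr6:8095671-8096605) 53 and 1084, a ratio of 3.52 (2.96 to 4.14). The regions of Col4a2 and Col28a1 did not differ in fibroblast-like cells beyond counting error, at -0.20 (-0.91 to 0.52) and -0.42 (-1.50 to 0.67). On the other side, an intron region of Col4a6 (chrX:141434889-141436513) went from 408 to 80 sites, a ratio of -3.19, one of Col18a1 (chr10:77099637-77100523) from 1095 to 295, a ratio of -2.73, and one of Col5a2 (chr1:45459159-45460099) from 635 to 192, a ratio of -2.56. Those 3 had 29 sites or fewer in fibroblast-like Control cells.

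With the same minimum, the regions with the largest ratios in fibroblast-like cells had high ratios in epithelial-like cells too. An intron region of Col6a5 (chr9:105887232-105888142) held 98 and 616 sites in fibroblast-like and 421 and 3879 in epithelial-like cells, log2 ratios of 2.01 (1.57 to 2.47) and 2.37 (2.16 to 2.58). Intron regions of Col8a1 and Col25a1 had ratios of 1.98 and 1.97 in fibroblast-like and 2.26 and 2.92 in epithelial-like cells. The lowest ratios in fibroblast-like cells with that minimum were at Col23a1 (-1.69), an exon of Col6a6 (-1.53) and Col15a1 (-1.44), each with 376 sites or fewer in Control.

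**Figure D4:**
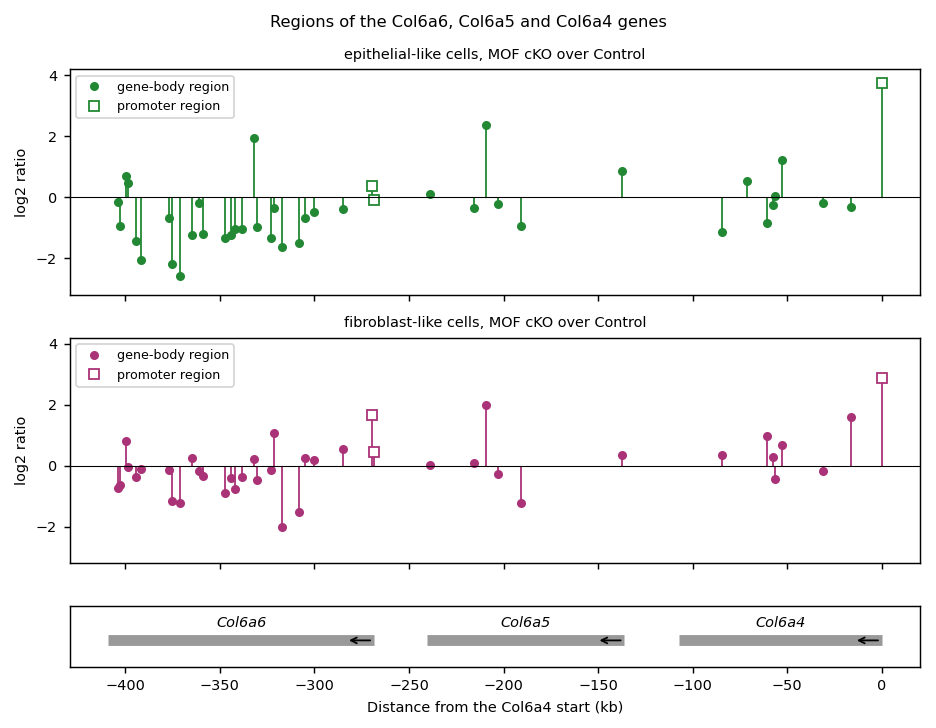
Log2 ratio of MOF cKO over Control for each shared region of the neighbouring genes Col6a6, Col6a5 and Col6a4, in epithelial-like (top) and fibroblast-like cells (middle), by distance from the Col6a4 start in kb, with promoter regions as open squares and gene-body regions as dots, and the genes below with arrows toward the transcribed side. The Col6a4 promoter (3.74 and 2.88) and the Col6a5 intron region (2.37 and 2.01) stand up in both classes, while 13 of 25 Col6a6 regions lie at or below -1 in epithelial-like cells, a count of 6 of 24 without the highest doublet scores.

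Col6a6, Col6a5 and Col6a4 lie side by side and in the same direction, and their regions did not move as a block. In epithelial-like cells 13 of the 25 gene-body regions of Col6a6 were at least 2-fold lower in MOF cKO and 1 higher, and in fibroblast-like cells 4 were lower and 1 higher. The Col6a6 gene body stood at 65.81 CPM in the high-doublet Control cluster 11, beside 16.61 and 12.53 in clusters 2 and 5, and from 5.91 to 47.03 CPM in the MOF cKO clusters, and when the highest doublet scores were left out 6 of 24 regions were lower and 2 higher. Col6a5 had 1 of 6 regions higher and none lower and Col6a4 1 of 8 higher and 1 lower in epithelial-like cells. Of the other genes, those with at least 5 more regions going one way were on both sides. Col4a2 had 7 of 31 regions higher and 1 lower, Col8a1 7 of 21 higher and 2 lower, Col28a1 6 of 20 higher and none lower, and Col15a1 5 of 20 higher and none lower. Col23a1 had 12 of 44 regions lower and 7 higher, Col14a1 9 of 36 lower and 4 higher, and Col25a1 9 of 47 lower and 4 higher. Without the highest doublet scores the counts were 7 lower and 7 higher for Col23a1. For Col25a1 they were then 7 of 46 lower and 4 higher. Over all gene-body regions 16.6% were at least 2-fold higher in MOF cKO epithelial-like cells and 13.6% lower. These shares were 18.1% and 12.2% without the highest doublet scores. The counts of single genes were not tested against them.

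Central stretches of 300 bases are shown for 4 of these regions, on the plus strand of GRCm38.p6, with TGANTCA on either strand in capitals. The Col28a1 window (chr6:8095988-8096287) and the Col6a5 window (chr9:105887537-105887836) hold 1 match each, and the Col4a1 (chr8:11263841-11264140) and Col18a1 (chr10:77099930-77100229) windows none. They are shown because they hold the large genotype ratios above, with Col28a1 high in the epithelium, Col4a1 and Col6a5 in both classes and Col18a1 low in the epithelium.
Col28a1 intron region: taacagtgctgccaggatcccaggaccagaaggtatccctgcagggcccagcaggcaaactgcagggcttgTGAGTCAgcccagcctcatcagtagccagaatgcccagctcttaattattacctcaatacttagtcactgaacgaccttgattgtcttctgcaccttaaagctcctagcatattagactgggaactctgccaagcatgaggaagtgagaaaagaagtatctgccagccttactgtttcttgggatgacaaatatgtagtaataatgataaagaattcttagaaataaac
Col6a5 intron region: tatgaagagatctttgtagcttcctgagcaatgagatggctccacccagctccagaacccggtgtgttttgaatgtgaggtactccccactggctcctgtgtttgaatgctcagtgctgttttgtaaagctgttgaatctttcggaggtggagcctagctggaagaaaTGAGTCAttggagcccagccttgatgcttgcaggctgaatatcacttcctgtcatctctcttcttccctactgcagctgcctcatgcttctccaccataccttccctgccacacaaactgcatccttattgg
Col4a1 intron region: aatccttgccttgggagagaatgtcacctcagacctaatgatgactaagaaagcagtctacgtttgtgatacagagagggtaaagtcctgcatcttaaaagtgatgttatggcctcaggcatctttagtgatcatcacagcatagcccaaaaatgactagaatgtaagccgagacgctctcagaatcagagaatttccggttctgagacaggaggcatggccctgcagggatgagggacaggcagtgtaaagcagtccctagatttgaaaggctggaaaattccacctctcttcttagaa
Col18a1 intron region: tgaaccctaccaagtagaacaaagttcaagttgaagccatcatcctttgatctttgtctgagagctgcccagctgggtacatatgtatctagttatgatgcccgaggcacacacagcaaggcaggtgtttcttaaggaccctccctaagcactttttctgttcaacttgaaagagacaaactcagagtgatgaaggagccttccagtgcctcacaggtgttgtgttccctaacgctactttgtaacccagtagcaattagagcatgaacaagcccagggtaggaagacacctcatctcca

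AP-1 matches were frequent among collagen regions with a high genotype ratio. For the epithelial-like class 61 of 101 regions at least 2-fold higher in MOF cKO (60.4%, 50.2 to 70.0) held TGANTCA in their central 300 bases, 85 of 446 regions within 2-fold (19.1%, 15.5 to 23.0) and 4 of 102 lower ones (3.92%, 1.08 to 9.74). All gene-body regions gave 58.2%, 15.7% and 6.01%, close to the collagen shares. In fibroblast-like cells 29 of 52 higher regions (55.8%, 41.3 to 69.5) and 2 of 48 lower ones (4.17%) held a match, beside 42.8% and 12% over all genes. Over all 649 collagen regions the share was 23.1% and over all genes 21.4%.

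**Figure D5:**
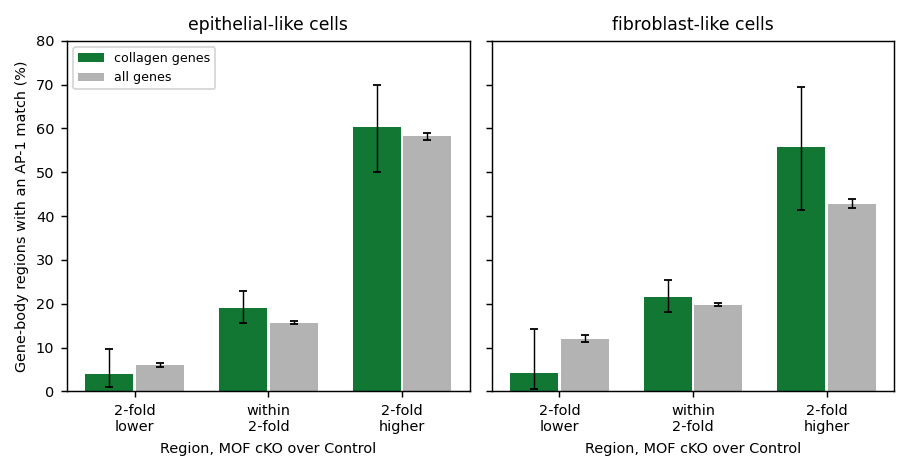
Percent of gene-body regions whose central 300 bases hold TGANTCA, for regions at least 2-fold lower, within 2-fold and at least 2-fold higher in MOF cKO than in Control, in epithelial-like (left) and fibroblast-like cells (right), for collagen genes (green) and all genes (grey), with 95% binomial intervals. The share in epithelial-like cells goes from 3.92% to 60.4% for collagens and from 6.01% to 58.2% for all genes.

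Genes that process collagen and bind to it were compared at their promoters in the same way, against the shares of all promoters past 2-fold given above (7.8% higher and 9.76% lower in Control, 15% and 8.56% in MOF cKO). Of 30 measured genes of processing and crosslinking, 9 were at least 2-fold higher in fibroblast-like Control cells and none lower, and in MOF cKO 12 and none. The median ratio of this list was 0.50 and 0.83, beside 0.17 and 0.57 for all promoters. Pcolce, the enhancer of procollagen C-proteinase, had 24.0 and 3.32 CPM in fibroblast-like and epithelial-like Control cells, Fkbp10, a collagen chaperone of the endoplasmic reticulum, 16.0 and 2.56, and Loxl4, a crosslinking lysyl oxidase, 29.3 and 5.55. The others in Control were Lox (2.12), which is also one of the fibroblast markers, Loxl1 (1.60), Loxl3 (1.57), P3h4 (1.38), Adamts2 (1.10) and Adamts14 (1.09), and in MOF cKO also Plod1, Serpinh1 and Bmp1, at 1.10, 1.11 and 1.18. Between the genotypes, 2.19% of all promoters were at least 2-fold higher and 2.6% lower in MOF cKO epithelial-like cells. In fibroblast-like cells 1.9% and 0.871% were, and these shares stand beside this list and those below. Of the genotype differences in this list, only Crtap in fibroblast-like cells passed 2-fold, at 12.4 CPM in Control and 25.7 in MOF cKO. Crtap, a partner of prolyl 3-hydroxylase, had a ratio of 1.05 (0.84 to 1.26) there and 0.20 in epithelial-like cells.

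Fibril partners were higher in fibroblast-like Control cells in 6 of 11 cases and lower in none, among them Dpt (3.81) and Lum (2.61), both also fibroblast markers, Kera (3.69), Ogn (2.44), Fn1 (1.10) and Sparc (1.01), and in MOF cKO in 8 cases, with Thbs1 (1.17) and Bgn (1.75) added. The median of the list was 1.01 in Control and 1.75 in MOF cKO, beside 0.17 and 0.57 for all promoters. Dcn, also in this list, is a fibroblast marker too, so these counts and medians include genes that helped to name the class. Of 17 basement membrane partners reported here, 3 were at least 2-fold higher and 4 lower in fibroblast-like Control cells, and 8 and 4 in MOF cKO, with a median of 0.34 and 0.87, beside 0.17 and 0.57 for all promoters. The laminin chain genes Lamb3 and Lama3, which serve the epidermal basement membrane, were lower in fibroblast-like Control cells, at -3.61 and -2.52, as were Lama5 and Frem2, at -2.10 and -1.86. The 3 higher ones were Nid1, Nid2 and Lama2, at 2.01, 2.05 and 2.39. In MOF cKO these genes passed in the same directions, together with Lamc1, Agrn, Frem1, Hspg2 and Lamb2, which were higher by 1.03 to 1.11. In epithelial-like cells Lamc1 (-1.01) among the basement membrane partners and Ogn (-1.48) and Bgn (-1.17) among the fibril partners were at least 2-fold lower in MOF cKO. Relative to the median of all promoters they were at -0.59, -1.06 and -0.75, so with all cells only Ogn stayed past 2-fold. Leaving out the highest doublet scores gave -1.04, -1.34 and -1.12, beside a median of all promoters of -0.43. Relative to that median none of them was past 2-fold. The part of the fibroblast marker sums in epithelial-like cells, 82.5 and 63.0 CPM, was not tested.

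Receptors of collagen and enzymes that degrade it held the largest genotype ratios of the 4 lists. Of 14 measured genes, 7 were at least 2-fold higher in fibroblast-like cells of both libraries and 3 lower. The higher ones stood in Control at 3.65 (Ddr2), 3.39 (Ctsk), 2.19 (Mmp2), 1.39 (Itga11), 1.23 (Mrc2), 1.13 (Mmp14) and 1.03 (Itga1), and the lower ones at -2.19 (Mmp9), -2.14 (Mmp3) and, from 0.0504 CPM in fibroblast-like cells, -4.22 (-9.55 to -1.68) for Mmp13. Mmp3, stromelysin, had 2.995 CPM in epithelial-like Control cells and 13.9 in MOF cKO, a log2 ratio of 2.21 (1.985 to 2.45), and in fibroblast-like cells 0.681 and 2.63, a ratio of 1.95 (1.11 to 2.90). Mmp13, collagenase 3, had 0.941 and 5.30 CPM in epithelial-like cells, a ratio of 2.50 (2.09 to 2.925), and its fibroblast-like counts were too few to compare, with a ratio of 2.60 (-0.23 to 8.05). Mmp9, a gelatinase, was at 1.5 (1.09 to 1.93) in fibroblast-like and 0.65 in epithelial-like cells, where the median of all promoters was -0.42. Relative to that median Mmp3 and Mmp13 were at 2.63 and 2.915 in epithelial-like cells. The receptor gene Ddr2 at -1.06 and Ctsk, the gene of cathepsin K, at -1.21 were the 2 lower genes of this list in epithelial-like cells, or -0.64 and -0.79 relative to all promoters, within 2-fold. They stood at -0.14 and -0.47 when the highest doublet scores were left out. Their levels stood beside the fibroblast marker sums of 82.5 and 63.0 CPM given above.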

How the data were processed

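Single-cell ATAC-seq data of 1 Control and 1 MOF cKO library, each a mixture of sorted GFP-positive and GFP-negative skin cells, were used. The deposited matrices hold raw counts of Tn5 cut sites per peak and barcode, made by the authors with Cell Ranger ATAC 2.0.0 per the file headers, on mm10. The labels also list Cell Ranger ARC. Peaks were called per library, so a region with a peak in only 1 library has no count in the other.

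Peaks that overlapped by at least 1 bp were merged, and of 369634 merged regions the 214119 to which both libraries contributed a peak were used. A promoter is a shared region within 500 bp of a start site of a protein-coding transcript (GENCODE vM21, GRCm38), and the gene body holds the other shared regions within the gene that are in no promoter. Counts were summed per library and cell class and given as CPM, so a level depends on the total in shared regions. A gene needed 20 sites over both sides of a ratio. Most values are even because both ends of a fragment are counted, so exact Poisson (levels), conditional binomial (ratios) and binomial (shares) 95% intervals were computed on sites divided by 2.

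Barcodes with at least 1000 sites were clustered on the 50000 most detected autosomal shared regions without 131 collagen regions, with TF-IDF, 30 singular vectors (28 used), 20 neighbours and Leiden at resolution 1. A cluster was named from at least 3 markers at 2-fold. A shallow cluster also needed a marker of its class among its top genes, and no other class could have more markers there. Doublets were scored against simulated pairs and left in, with the 10% highest scores left out as an alternative. The ratio script was tested on simulated data.

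In each comparison values are given for Col1a1, Col1a2, Col3a1, the collagen IV genes, Col6a1 to Col6a3, Col7a1 and the 5 highest and 5 lowest collagens with at least 100 sites, for the 3 highest and 3 lowest gene-body regions per class with at least 200 sites. Listed partner genes past 2-fold are named, with a value in at least 1 comparison. One listed gene is not reported here. Other collagens named were chosen after their values were seen. Members, marker lists and gene lists were chosen with earlier results of these data known. Alternatives were all own peaks as the total or as the regions, median-of-ratios scaling, a 100 bp window, minimums of 100 sites a gene and 5000 a cell, clustering with collagen regions, start sites of other genes kept in bodies, the doublet limit and, chosen after seeing the data, only fibroblast-like cluster 4. Tools were Python 3.11.15, NumPy 2.4.6, SciPy 1.17.1, scikit-learn 1.9.0, leidenalg 0.10.2, igraph 0.11.9, pysam 0.24.0 and matplotlib 3.10.9.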

Additional observations from a re-analysis of the deposited data

Results flagged for a closer look

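The promoters of Col7a1 and Col2a1 had genotype ratios of opposite sign in the 2 main classes, with counting intervals that did not reach 0. Col7a1 stood at a log2 ratio of 0.55 in the epithelial-like class and -0.42 in the fibroblast-like one, and Col2a1 at 0.47 and -0.34. With 1 library per genotype the difference between the classes was not tested. The values of single clusters of the 2 libraries overlapped for both genes in both classes. For Col7a1 in epithelial-like cells they did so only through the high-doublet Control cluster 11.

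Regions with a peak in only 1 library were left out of the comparisons and hold signal. The Control-only region with the most sites was in Col5a2 (chr1:45502008-45502543), with 934 sites over both classes, 607 of them in epithelial-like cells. The MOF cKO-only region with the most sites was in Col24a1 (chr3:145338149-145339048), with 3180 sites, 2451 of them in epithelial-like cells. No count of the other library exists at these regions, so neither is a difference between the genotypes.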

How the results depend on the processing

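Of 169 ratios of single named collagens, those past 2-fold kept their sign under the alternatives run and 16 smaller ones changed it under at least 1, among them the MOF cKO over Control promoter of Col3a1 in epithelial-like cells, at 1.49 without the highest doublet scores. Without the highest doublet scores the promoters lower in fibroblast-like Control cells numbered 2, the promoters higher in MOF cKO epithelial-like cells 3 and the gene bodies higher there 5, where the median gene body relative to all genes was 0.17. With median-of-ratios scaling no promoter was 2-fold lower in MOF cKO epithelial-like cells (0 of 38) and 2 were higher in fibroblast-like cells, and the median collagen promoter of the epithelial-like class turned from -0.29 to 0.13. In the 1 fibroblast-like cluster chosen after seeing the data, 2 promoters were higher and 2 gene bodies lower. The share of sites at collagen genes was 0.195% in epithelial-like Control, 0.222% in epithelial-like MOF cKO, 0.339% in fibroblast-like Control and 0.331% in fibroblast-like MOF cKO cells over all own peaks, and 0.182% and 0.215% in the epithelial-like cells without the highest doublet scores. Of the other values, 148 of the summaries and 931 of single genes moved by less than the limits set, and 108 of single genes moved further. The causes were not tested. No paired analysis was possible because each genotype is 1 library. Depth limits the mural-like, endothelial-like and immune-like values most, since these classes held 9 to 281 cells, and low promoters such as Col9a1 and Col4a3 rest on 138 sites or fewer in fibroblast-like cells of a library.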
